A study of Homo sapiens with 12 samples.

Results

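Interferon-stimulated genes are the genes whose transcription rises when a cell senses interferon, and 41 of them were followed here across 12 RNA sequencing libraries of hTERT-RPE1 cells. The genes were taken by symbol from a list: each of the 41 symbols had a single row among the 53361 rows of the gene table, and 38 had enough signal to be tested (at least 1 FPKM in at least 3 libraries). FPKM counts sequenced fragments per kilobase of a transcript and in proportion to the library's mapped total, so levels can be compared between genes. The 3 genes left untested for low values were USP18, OASL and SAMD9.

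All 4 groups are the same established line, human pigment epithelium of the retina made immortal by a TERT (telomerase) transgene. The control group was untreated, with no vehicle or harvest time named in the labels. Reversine, an inhibitor of the mitotic checkpoint kinase MPS1 that makes dividing cells missegregate chromosomes, was given at 0.5 µM for 24 h, and these cells were washed and collected 48 h later. Bafilomycin A1 (BafA1), which blocks the proton pump of lysosomes, was given at 0.1 µM for 6 h. MG132, which blocks the proteasome, was given at 1 µM for 24 h. Each group had 3 libraries, and nothing in the labels says whether these came from separate cultures, so the p-values measure only the spread between libraries. The 3 treatments share the same 3 controls and differ in time as well as in agent.

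Type I interferons bind the receptor chains IFNAR1 and IFNAR2, whose kinases JAK1 and TYK2 phosphorylate STAT2. STAT2 and IRF9 are subunits of the factor ISGF3, which binds the interferon-stimulated response element of its target genes. Interferon regulatory factors such as IRF1 bind similar DNA, and many targets can therefore change with or without interferon itself. The products degrade, bind or edit viral RNA, block viral entry, or attach the ubiquitin-like protein ISG15 to other proteins.

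The element that ISGF3 and the interferon regulatory factors recognise can be read in the promoters of these genes. RefSeq promoters (build GRCh38.p14, 250 bases before to 50 bases after a start site) were found for 33 of the 41 genes. Either strand of 22 of these 33 genes (66.7%) held the letters GAAANNGAAA at 1 or more starts, against 4.38% of 27305 genes in the same table. The letters TTCNNNGAA, a core bound by dimers of STAT proteins, were in 10 of 33 (30.3%) against 9.38%. The stretches below come from genes whose levels are described further on, with the matched letters in capitals. They are written along the coding strand of each gene, so that a match on the other strand reads TTTCNNTTTC. IFI6 lies at chr1:27672264-27672360 on the minus strand, OAS3 at chr12:112938319-112938473 on the plus strand, IFI44 at chr1:78649759-78649788 on the plus strand, IFIT5 at chr10:89414511-89414567 on the plus strand, IFITM3 at chr11:320874-320924 on the minus strand and ISG15 at chr1:1013372-1013411 on the plus strand. All 6 stretches lie upstream of the start site, and that of IFIT5 ends within a further match that runs across the start and is left in lower case. The IRF1 stretch, at chr5:132490877-132490909 on the minus strand, shows the other motif, TTCNNNGAA.
IFI6: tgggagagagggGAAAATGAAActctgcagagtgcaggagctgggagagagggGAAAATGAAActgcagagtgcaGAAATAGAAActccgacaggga
OAS3: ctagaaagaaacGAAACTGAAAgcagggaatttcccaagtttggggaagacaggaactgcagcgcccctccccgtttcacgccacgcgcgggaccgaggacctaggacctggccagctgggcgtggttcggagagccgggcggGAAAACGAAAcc
IFI44: gggcacactgagTTTCAGTTTCctttctct
IFIT5: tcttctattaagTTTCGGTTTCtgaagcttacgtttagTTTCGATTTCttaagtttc
IFITM3: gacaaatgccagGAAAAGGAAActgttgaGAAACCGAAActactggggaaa
ISG15: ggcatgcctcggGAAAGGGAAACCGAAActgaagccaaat
IRF1: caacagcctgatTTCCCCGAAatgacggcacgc
The 6 genes shown with GAAANNGAAA carry the same letters and had different changes in these libraries. IFI6 was higher after reversine, OAS3 was lower after reversine and MG132, and IFI44 and IFIT5 were higher after MG132. IRF1, STAT2, SP100, SAMD9L, HERC6 and IRF9 were among the genes with no GAAANNGAAA match in these windows, which says only that these letters are absent there.

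Libraries of the same group differed from each other in composition. Over 14010 genes with at least 1 FPKM in every library, the slope of a library's levels, relative to the other libraries, on transcript GC content was -0.315 log2 units per 10 percentage points in reversine 1, -0.0847 in BafA1 3, -0.414 in MG132 2 and -0.436 in MG132 3. These 4 libraries are called negative-slope libraries here, and the other 8 had slopes of 0.0861 to 0.203. Control 3, MG132 2 and MG132 3 had 9118 to 10150 rows at 0, and the others at most 4240. Read counts are not in the table; depth relative to control 3, estimated from the small values that genes without reads receive, was 0.566 to 1. The cells had the epithelial keratins KRT8 and KRT18. Of 10 retinal pigment epithelium markers, the factors MITF (9.29 to 20.3 FPKM) and OTX2 (10.1 to 17.3 FPKM) were the highest. PMEL was at 3.93 to 6.52 FPKM, SERPINF1 at 3.30 to 6.30 and TYRP1 at 1.61 to 2.81. BEST1 was at 0.87 to 1.78, RLBP1 at 0.86 to 1.75, TYR at 0.38 to 0.62 and DCT at 0.36 to 0.58. RPE65, the visual cycle enzyme of mature pigment epithelium, was at 0.04 to 0.06 FPKM. The value that a gene without reads takes was not estimated for the markers. Low levels such as those of RPE65, TYR and DCT may therefore be no more than that value. None of 8 leukocyte and 3 plasmacytoid dendritic cell markers was called in a comparison with control, and none of them was at 0 in any library. The plasmacytoid dendritic cell markers summed to 1.76 to 2.21 FPKM in control libraries, 2.99 to 3.15 in reversine libraries, 2.18 to 2.97 in BafA1 libraries and 2.27 to 2.59 in MG132 libraries, so that the reversine and MG132 sums were above the controls. Among them IL3RA was 3.02 times control after reversine, without overlap (adjusted p = 0.0522). The leukocyte markers summed to 10.1 to 11.4 FPKM in control libraries, 9.37 to 12.8 in reversine libraries, 11.6 to 14.7 in BafA1 libraries and 12.3 to 22.5 in MG132 libraries. Of these, PTPRC was at 3.12 to 4.46 FPKM in control and 3.80, 13.2 and 8.31 after MG132 (adjusted p = 0.103). Its transcript GC content is 39.2%, and its 2 high values were in negative-slope libraries. The part of both lists in the results was not tested. After MG132 both keratins, TERT, and THY1 and COL1A1 of 4 mesenchymal markers were called lower.

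Untreated cells already had a wide range of levels of the 41 genes. The highest control means belonged to IFITM3 (234 ± 9.93 FPKM, SD, n = 3), IFITM2 (186 ± 25.7), ADAR (65.5 ± 16.2), PML (45.8 ± 2.48) and STAT2 (30.2 ± 2.40). At the other end SAMD9 averaged 0.123 and OASL 0.52 FPKM. RSAD2, the antiviral enzyme viperin, averaged 1.12 FPKM in control and stayed within 1.25 times the estimated value of a gene without reads in all 12 libraries. The control means of XAF1, MX2, MX1 and OAS2 were 1.12 to 1.44 times that value, so a lower level of these genes could hardly have been seen.

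After reversine, 4 of 38 tested genes were called (10.5%), with STAT2, IFI6 and IFIT2 higher and OAS3 lower. A gene was called when limma's adjusted p, over all rows tested, was under 0.05, and 2.09% of all rows were called in this comparison (0.801% higher and 1.29% lower). Log2 differences here are of FPKM + 1, which understates changes of low genes, and their median over the 38 genes was 0.49 against 0.09 over all rows. With a filter of 5 FPKM in 3 libraries these medians were 0.50 and 0.35. Levels in the 3 reversine libraries were all above the 3 controls for 19 genes and all below them for 1, and among all rows tested for 9.97% and 10.1%. The count was 2 without control 1 or without control 3, and 0 in a fit of the 2 groups alone. Calls over all rows ranged from 22 to 1104 over the 15 alternatives, beside 642 in the planned fit. In RNA from whole cultures, a change in every cell and a change in a share of the cells cannot be told apart.

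After BafA1, none of the 38 genes was called by limma, beside 0.264% of all rows. An unadjusted p under 0.05 was reached by 4 of them (7.12% of all rows): STAT2, IRF9, IFIT2 and RSAD2, each with a higher mean than control. RSAD2 stayed near the estimated value of a gene without reads, which itself averaged 0.996 FPKM in control and 1.24 after BafA1 for this gene. The median log2 difference was 0.17 against 0.14 over all rows, and the groups did not overlap for 9 genes with higher and 2 with lower values (15.7% and 7.42% of all rows).

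After MG132, 12 of 38 genes were called (31.6%), beside 14.8% of all rows (7.14% higher and 7.67% lower). STAT2, IFI44, IFIT5, SP100 and SAMD9L were higher, and OAS3, IFITM2, IFITM3, IRF1, HERC6, PML and IFI6 were lower. The median log2 difference was 0.12 against 0.04 over all rows, and it was -0.04 with median-ratio scaling between libraries and -0.12 without the 4 negative-slope libraries. Groups did not overlap for 14 genes with higher and 10 with lower values, and for 20.3% and 13.5% of all rows. Leaving out MG132 1 gave 20 calls, leaving out control 3 gave 7, and leaving out control 1, control 2, MG132 2 or MG132 3 gave 6. Calls over all rows ranged from 507 to 12980 over the 15 alternatives, beside 4549 in the planned fit.

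**Figure D1:**
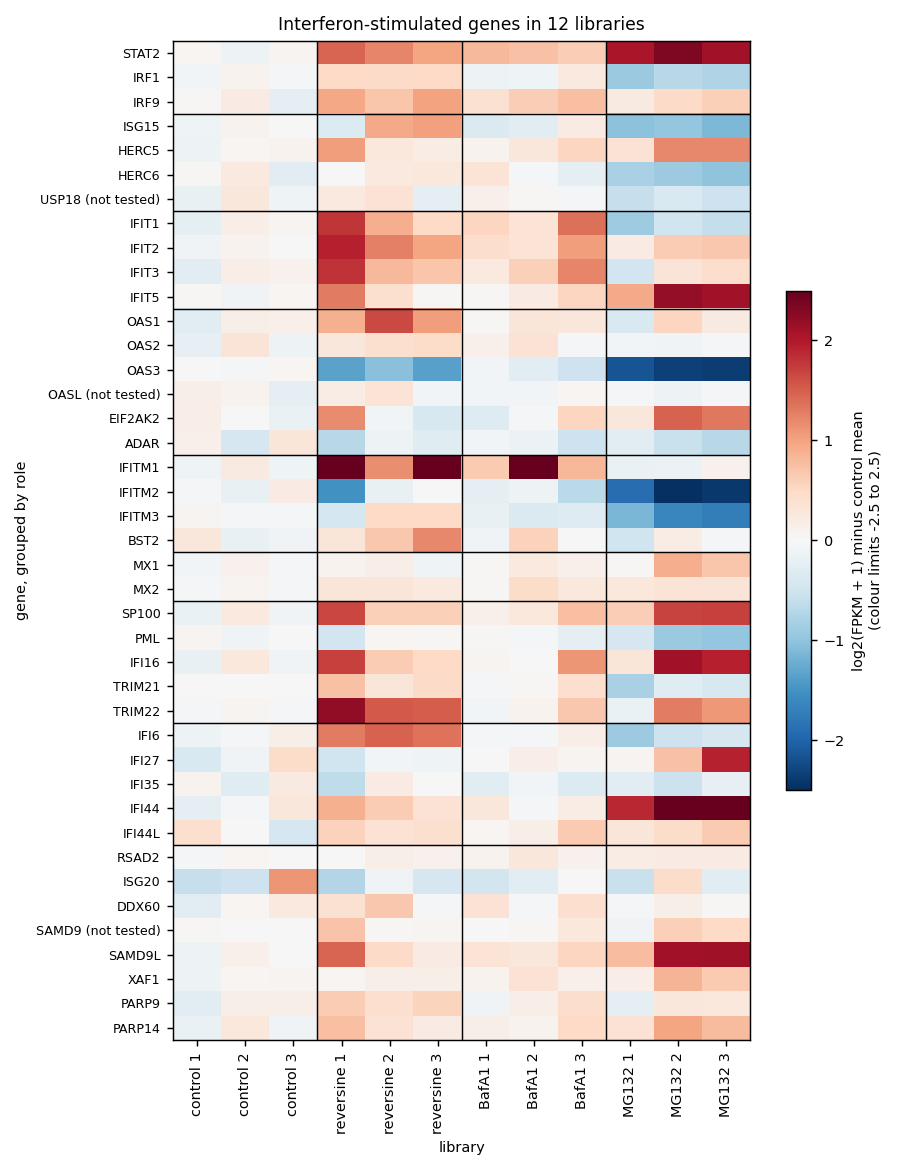
Difference of each library from the control mean on the log2(FPKM + 1) scale (colour, limited to -2.5 to 2.5) for the 41 genes in rows, grouped by role, and the 12 libraries in columns. STAT2 is above the control mean in all 9 treated libraries, OAS3 is below it in all of them, and IFITM2 and IFITM3 are lowest after MG132.

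**Figure D2:**
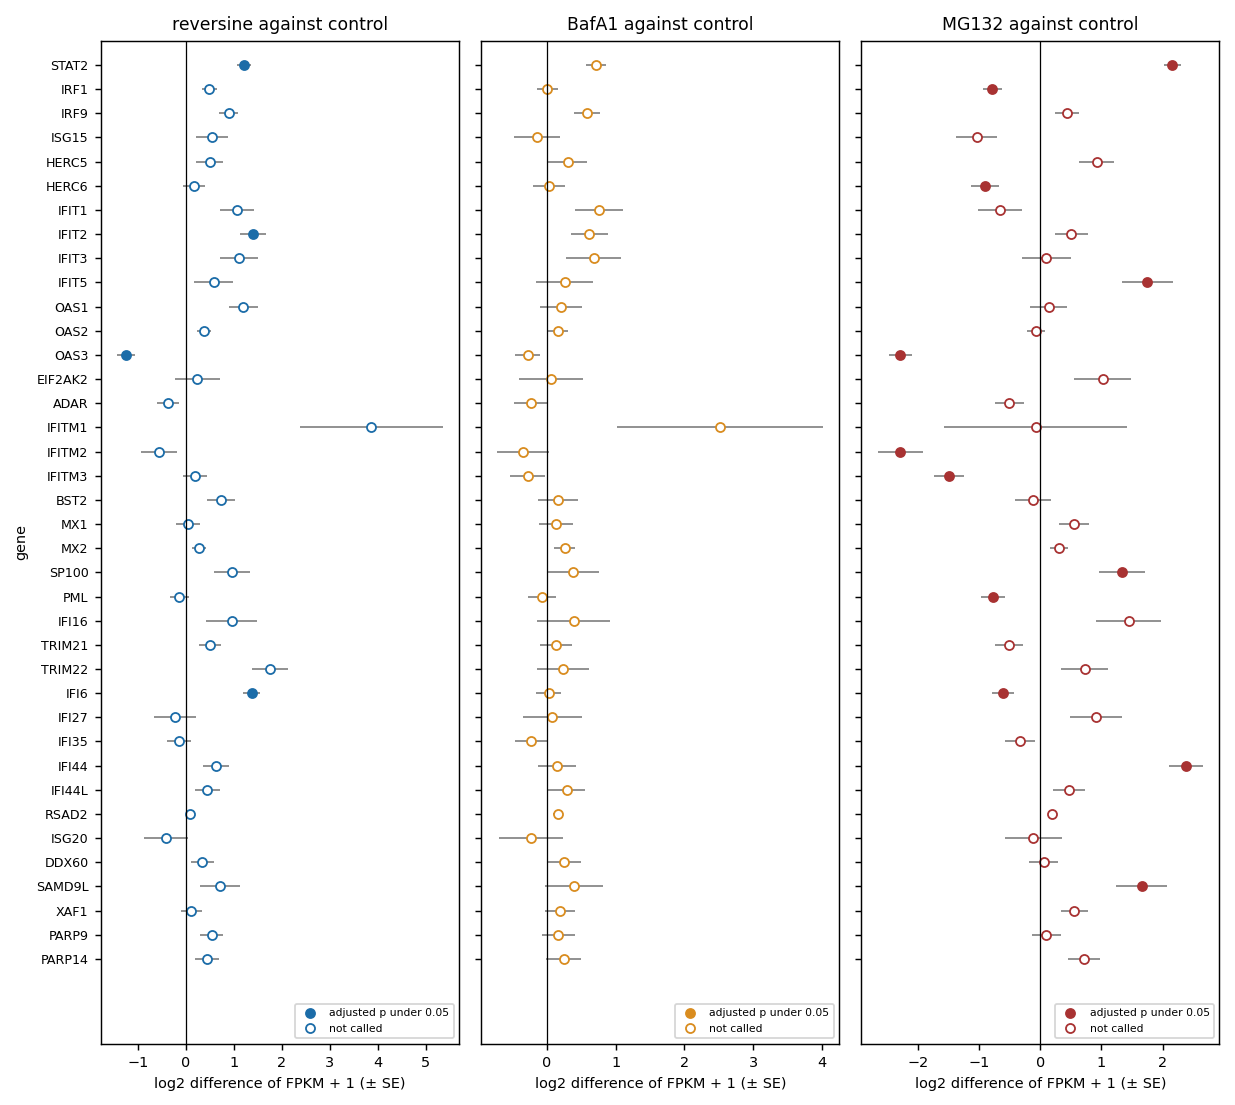
Log2 difference of FPKM + 1 against control with its standard error for the 38 tested genes, in 1 panel per treatment with its own axis (filled: adjusted p under 0.05). The filled points number 4 after reversine, 0 after BafA1 and 12 after MG132.

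STAT2, the transactivating subunit of ISGF3, was higher than control in every treated library. Its levels were 31.4, 27.4 and 31.8 FPKM in control, 84.0, 71.6 and 60.9 after reversine, 53.4, 50.9 and 46.5 after BafA1, and 127, 157 and 133 after MG132. No treated library overlapped the controls, and the order of the means was control, BafA1, reversine, MG132. The log2 difference from control was 1.22 ± 0.14 (SE) after reversine (adjusted p = 0.00313), 0.72 ± 0.14 after BafA1 (adjusted p = 0.132) and 2.16 ± 0.14 after MG132 (adjusted p = 3.28e-05). MG132 exceeded reversine by a tested difference as well (reversine minus MG132, -0.94 ± 0.14, adjusted p = 0.00479), and BafA1 (-1.45 ± 0.14, adjusted p = 0.000293). The difference between reversine and BafA1 was not called. The MG132 call held in all 15 alternative analyses, and the reversine call was lost without control 3, MG132 2 and MG132 3 together and in a fit of the 2 groups alone (highest adjusted p 0.0933).

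IRF1, a DNA-binding activator of many of these genes, went the other way from STAT2 after MG132. Control levels were 19.6, 21.9 and 20.1 FPKM, those after reversine were 29.4, 28.98 and 29.4, those after BafA1 were 18.6, 19.0 and 24.5, and those after MG132 were 10.4, 12.4 and 11.8. All MG132 libraries were below all controls and all reversine libraries were above them. The MG132 difference of -0.79 ± 0.15 was called (adjusted p = 0.00844) and the reversine difference of 0.49 ± 0.15 was not (adjusted p = 0.187). Set directly against MG132, reversine was higher by 1.28 ± 0.15 (adjusted p = 0.00125) and BafA1 by 0.79 ± 0.15 (adjusted p = 0.00979). Because no strand setting is given in the sources used here and 22.0% of the 50-base stretches of IRF1 transcripts are shared with other genes, mostly the overlapping C5orf56, reads of the 2 genes may be mixed. IRF9, the DNA-binding subunit of ISGF3, had no call against control. Its means were 13.4 ± 2.24 FPKM in control, 25.6 ± 3.05 after reversine, 20.4 ± 2.77 after BafA1 and 18.4 ± 2.59 after MG132, and the reversine difference of 0.89 ± 0.19 missed the threshold (adjusted p = 0.0522, and 0.0329 to 0.255 over the alternatives). IRF9 shares 43.8% of its 50-base stretches with other annotated genes.

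**Figure D3:**
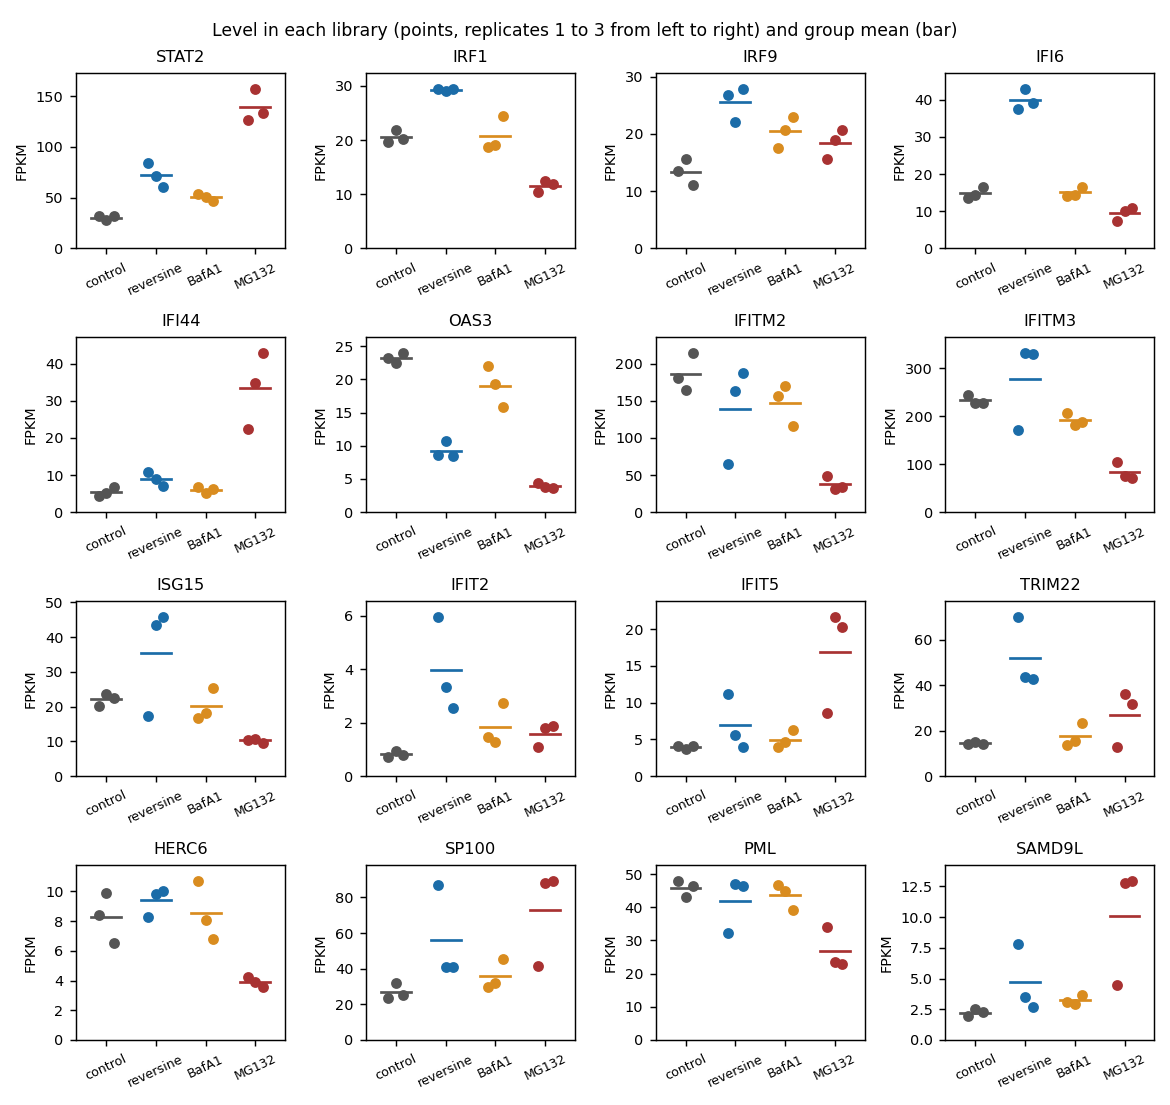
FPKM of 16 genes in each library (points, replicates 1 to 3 from left to right within a group) with group means (bars). The axes start at 0 and differ between panels. STAT2, IFI44 and OAS3 show MG132 libraries apart from all controls, and SP100, IFIT5 and SAMD9L show MG132 1 below MG132 2 and 3.

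The ISG15 system attaches and removes the ubiquitin-like ISG15. Of its 4 genes, HERC6 fell after MG132 and none of the 3 tested was called after reversine or BafA1. HERC6, a ligase of the HERC family, had 8.43, 9.91 and 6.55 FPKM in control, 8.29, 9.85 and 10.1 after reversine, 10.7, 8.04 and 6.80 after BafA1, and 4.24, 3.92 and 3.55 after MG132. Only the MG132 libraries stood apart from control (-0.91 ± 0.23, adjusted p = 0.0281), and reversine and BafA1 were each higher than MG132 (1.08 ± 0.23, adjusted p = 0.0236, and 0.94 ± 0.23, adjusted p = 0.0302). The HERC6 call against control was lost in 7 of 15 alternatives, among them those without control 1, control 2, MG132 2 or MG132 3 (highest adjusted p 0.205). HERC5, the main ISG15 ligase, averaged 1.24 FPKM in control and 3.40 after MG132 (0.93 ± 0.29, adjusted p = 0.062).

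ISG15 itself, described here after its values were seen, depended on reversine 1. It stood at 20.3, 23.6 and 22.4 FPKM in control, 17.3, 43.4 and 45.8 after reversine, 16.9, 18.3 and 25.5 after BafA1, and 10.4, 10.8 and 9.58 after MG132. Reversine 2 and 3 were above all controls while reversine 1 was below them, and all MG132 libraries were below the controls. The difference after reversine was 0.55 ± 0.34 (adjusted p = 0.551) and 0.98 without the 4 negative-slope libraries (adjusted p = 0.0396). ISG15 has the highest transcript GC content of the 38 tested genes (64.7%). After MG132 the difference was -1.04 ± 0.34 (adjusted p = 0.0703), and the direct comparison of reversine with MG132 was called (1.58 ± 0.34, adjusted p = 0.0235). USP18, the protease that removes ISG15, was at 0.40, 0.95 and 0.49 FPKM in control, 0.89, 1.04 and 0.36 after reversine, 0.75, 0.63 and 0.54 after BafA1, and 0.07, 0.22 and 0.11 after MG132. Its MG132 libraries were all below the controls (a ratio of means of 0.217), at levels too low to be tested.

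IFIT proteins bind foreign RNA ends, and their genes form a cluster on chromosome 10. IFIT2 was at 0.71, 0.92 and 0.80 FPKM in control, 5.96, 3.34 and 2.56 after reversine, 1.46, 1.29 and 2.74 after BafA1, and 1.09, 1.81 and 1.87 after MG132. All 9 treated libraries were above all controls, and the reversine difference was called (1.40 ± 0.27, adjusted p = 0.0317, a ratio of means of 4.88). This call was lost in 8 of 14 alternatives, including those without any 1 of the 3 controls, reversine 1 or reversine 2 (highest adjusted p 0.171). For IFIT1 the values were 1.11, 1.78 and 1.59 FPKM in control, 7.52, 3.62 and 2.51 after reversine, 2.60, 2.15 and 5.44 after BafA1, and 0.33, 0.75 and 0.65 after MG132. Reversine and BafA1 libraries lay above the controls and MG132 libraries below them, with no call against control (1.06 ± 0.35, 0.76 ± 0.35 and -0.66 ± 0.35, adjusted p = 0.226, 0.493 and 0.193). The treatments did differ from each other in IFIT1: reversine exceeded MG132 by 1.72 ± 0.35 (adjusted p = 0.0202) and BafA1 exceeded it by 1.42 ± 0.35 (adjusted p = 0.0323).

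In IFIT5 the MG132 libraries had the highest mean and not the lowest. It was at 4.07, 3.66 and 4.11 FPKM in control, 11.2, 5.56 and 4.02 after reversine, 4.01, 4.68 and 6.22 after BafA1, and 8.57, 21.7 and 20.3 after MG132. MG132 libraries were all above control (1.75 ± 0.41, adjusted p = 0.0205) and above BafA1 (BafA1 minus MG132, -1.50 ± 0.41, adjusted p = 0.0482). Without the 4 negative-slope libraries, MG132 is represented by MG132 1 alone and the difference was 0.95 (adjusted p = 0.057). The call was also lost without any 1 of the 3 controls, MG132 2 or MG132 3 (0.00189 to 0.517 over the alternatives). IFIT3 averaged 3.52 ± 0.70 FPKM in control, 9.26 ± 4.70 after reversine, 6.48 ± 2.66 after BafA1 and 3.97 ± 1.54 after MG132, with no call.

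OAS3 was the only gene of the 41 called lower in more than 1 comparison with control. OAS enzymes sense double-stranded RNA and make the 2-5A messenger that activates RNase L. Levels of OAS3 were 23.2, 22.5 and 24.0 FPKM in control, 8.58, 10.8 and 8.43 after reversine, 22.0, 19.3 and 15.9 after BafA1, and 4.40, 3.82 and 3.66 after MG132. Reversine and MG132 libraries lay far below the controls, and the BafA1 libraries just below them. The log2 difference was -1.25 ± 0.18 after reversine (adjusted p = 0.00917), -0.28 ± 0.18 after BafA1 (adjusted p = 0.733) and -2.29 ± 0.18 after MG132 (adjusted p = 7.98e-05). All 3 treatments also differed from each other: reversine was below BafA1 (-0.96 ± 0.18, adjusted p = 0.0432), and MG132 was below reversine (1.04 ± 0.18, adjusted p = 0.00984) and below BafA1 (2.01 ± 0.18, adjusted p = 0.000175). The MG132 call held in all 15 alternatives. The reversine call was lost in 4 of 15, without control 1, without control 3, without control 3, MG132 2 and MG132 3 together, and in a fit of the 2 groups alone (highest adjusted p 0.116).

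The neighbouring OAS1 did not follow OAS3 after reversine. Its levels were 3.82 to 5.40 FPKM in control libraries, 9.69 to 17.2 with reversine, 4.92 to 6.10 with BafA1 and 3.46 to 7.44 with MG132. For OAS1 the estimated value of a gene without reads averaged 2.78 FPKM in control and 4.87 after MG132. A fall of OAS1 after MG132 could therefore hardly have been seen. The reversine libraries were above all controls, by 1.19 ± 0.30 (adjusted p = 0.0966), which was called with median-ratio scaling and with GC and length correction (lowest adjusted p 0.0197). OAS2 and OASL were at 0.29 to 1.71 FPKM throughout. ADAR, which edits adenosines in double-stranded RNA, had 70.3, 47.4 and 78.7 FPKM in control, 39.0, 58.8 and 51.7 after reversine, 61.0, 58.1 and 44.7 after BafA1, and 52.9, 43.2 and 39.1 after MG132. All 3 treated groups overlapped the controls. EIF2AK2, the RNA-activated kinase PKR, averaged 7.26 ± 0.95 FPKM in control and 16.7 ± 6.83 after MG132 (1.02 ± 0.46, adjusted p = 0.129), and was called only when MG132 1 was left out.

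IFITM proteins block the fusion of virus and cell membranes, and the levels of IFITM2 and IFITM3 were the highest of these genes in control and fell after MG132. IFITM3 had 245, 228 and 228 FPKM in control, 171, 331 and 330 after reversine, 206, 182 and 187 after BafA1, and 105, 75.0 and 70.1 after MG132. IFITM2 had 181, 164 and 214 in control, 64.4, 163 and 187 after reversine, 156, 169 and 116 after BafA1, and 48.6, 30.6 and 34.1 after MG132. Both genes were lower in every MG132 library than in any other library, the nearest being reversine 1 for IFITM2. The MG132 differences were -1.50 ± 0.25 for IFITM3 (adjusted p = 0.00399) and -2.29 ± 0.37 for IFITM2 (adjusted p = 0.00348), and both were called in 14 of 15 alternatives, the exception being that without control 3, MG132 2 and MG132 3. MG132 was also below reversine (1.68 ± 0.25 and 1.73 ± 0.37, adjusted p = 0.00408 and 0.0244) and below BafA1 (1.21 ± 0.25 and 1.94 ± 0.37, adjusted p = 0.0134 and 0.00936) for IFITM3 and IFITM2. After reversine IFITM3 was called higher only without the 4 negative-slope libraries (0.50, adjusted p = 0.0409).

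IFITM1 was at most 1.23 FPKM in control and MG132 libraries and very high in 3 others. It was at 0.78, 1.23 and 0.77 FPKM in control, 45.7, 3.31 and 108 after reversine, 2.03, 128 and 2.40 after BafA1, and 0.70, 0.72 and 1.06 after MG132. The 3 high libraries were reversine 1, reversine 3 and BafA1 2. All reversine and BafA1 libraries were above all controls, with no call (reversine 3.87 ± 1.50, adjusted p = 0.321, and BafA1 2.52 ± 1.50, adjusted p = 0.679). The SD within the group was 52.4 FPKM after reversine and 72.6 FPKM after BafA1, beside means of 52.2 and 44.1 FPKM. IFITM1, IFITM2 and IFITM3 shared 32.0%, 34.3% and 35.2% of their 50-base stretches, the length of the reads, with each other or other genes, so that the estimated division of reads between the 3 is uncertain. BST2, the membrane tether tetherin, was at 1.85 to 2.92 FPKM in control and 2.99 to 6.40 after reversine (0.73 ± 0.29, adjusted p = 0.354). The Mx GTPases MX1 and MX2, which trap viral nucleocapsids, were at 4.44 to 10.1 and 2.26 to 3.63 FPKM with no call.

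Among the nuclear proteins SP100 rose and PML fell after MG132; both are components of PML nuclear bodies. SP100 stood at 23.8, 31.8 and 25.2 FPKM in control, 87.3, 41.1 and 40.8 after reversine, 29.5, 32.2 and 45.6 after BafA1, and 41.4, 88.3 and 89.3 after MG132. PML stood at 48.0, 43.1 and 46.4 in control, 32.4, 47.1 and 46.6 after reversine, 46.8, 45.0 and 39.1 after BafA1, and 34.0, 23.5 and 22.9 after MG132. All MG132 libraries were outside the control range for both genes, with MG132 1 nearest to it. The differences were 1.33 ± 0.38 for SP100 (adjusted p = 0.0432) and -0.77 ± 0.20 for PML (adjusted p = 0.0286). Without the 4 negative-slope libraries, which leaves MG132 1 alone for MG132, the differences were 0.61 and -0.42 and neither was called. Both calls were lost as well without any 1 of the 3 controls, MG132 2 or MG132 3 (highest adjusted p 0.797 for SP100 and 0.733 for PML). The transcript GC content is 43.2% for SP100 and 60.9% for PML.

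TRIM22, an antiviral ubiquitin ligase, had the second largest difference after reversine, behind IFITM1, among genes without overlap. It was at 13.9, 15.2 and 13.9 FPKM in control, 69.9, 43.5 and 42.5 after reversine, 13.6, 15.4 and 23.4 after BafA1, and 12.6, 35.9 and 31.5 after MG132. Each reversine library was at least 42.5 FPKM, and the difference of 1.75 ± 0.38 missed the threshold in the analysis as planned (adjusted p = 0.0553) and passed it in 5 of 15 alternatives (0.00977 to 0.201). TRIM22 shares 13.4% of its 50-base stretches with other genes, mostly OR56B1. IFI16, a nuclear DNA sensor, was at 12.8 to 17.8 FPKM in control, 21.2 to 50.5 after reversine and 18.3 to 66.5 after MG132, with no call. TRIM21, a cytosolic antibody receptor, was called only between reversine and MG132, where it was higher after reversine (1.01 ± 0.23, adjusted p = 0.0304).

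In the IFI family IFI6 followed reversine and IFI44 followed MG132. IFI6, a small membrane protein, was at 13.5, 14.4 and 16.5 FPKM in control, 37.6, 42.9 and 39.2 after reversine, 14.2, 14.3 and 16.6 after BafA1, and 7.35, 10.1 and 10.8 after MG132. Reversine libraries were all above, and MG132 libraries all below the controls, and BafA1 libraries overlapped them. The difference was 1.37 ± 0.18 after reversine (adjusted p = 0.00459, called in 14 of 15 alternatives), 0.02 ± 0.18 after BafA1 (adjusted p = 0.99) and -0.61 ± 0.18 after MG132 (adjusted p = 0.0476, called in 6 of 15). The MG132 call was lost without any 1 of the 3 controls, MG132 2 or MG132 3 (highest adjusted p 0.183). Reversine exceeded BafA1 by 1.35 ± 0.18 (adjusted p = 0.00697) and MG132 by 1.99 ± 0.18 (adjusted p = 0.000268). The IFI6 transcripts share none of their 50-base stretches with other genes, and its level in reversine 1 lay with those of reversine 2 and 3.

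IFI44 had the largest rise of the 38 genes after MG132. It was at 4.36, 5.22 and 6.68 FPKM in control, 10.7, 8.88 and 7.16 after reversine, 6.72, 5.24 and 6.18 after BafA1, and 22.3, 34.9 and 42.9 after MG132. The MG132 libraries were at least 22.3 FPKM and no other library passed 10.7. The difference was 2.39 ± 0.28 (adjusted p = 0.000573, a ratio of means of 6.15), was called in all 15 alternatives, and remained 1.88 without the 4 negative-slope libraries (adjusted p = 0.0228). MG132 also exceeded reversine (reversine minus MG132, -1.76 ± 0.28, adjusted p = 0.00533) and BafA1 (-2.24 ± 0.28, adjusted p = 0.00092). IFI44L, its neighbour and relative, was at 2.75 to 5.55 FPKM in control and 5.12 to 6.80 after MG132 (0.47 ± 0.27, adjusted p = 0.221). IFI27 and IFI35 had no call, and IFI27 was at 9.31, 15.3 and 36.5 FPKM after MG132 against 6.54 to 12.6 in control.

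Of the 8 other effectors SAMD9L was called, higher after MG132. SAMD9L, a restriction factor of poxviruses, was at 1.94, 2.5 and 2.26 FPKM in control, 7.83, 3.50 and 2.72 after reversine, 3.10, 2.95 and 3.65 after BafA1, and 4.48, 12.8 and 13.0 after MG132. All treated libraries were above all controls, and the MG132 difference was 1.66 ± 0.42 (adjusted p = 0.0278). Without the 4 negative-slope libraries, which leaves MG132 1 alone for MG132, the difference was 0.76 and not called. Leaving out any 1 of the 3 controls, MG132 2 or MG132 3 ended the call (highest adjusted p 0.653). Its relative SAMD9 was at 0.05 to 0.83 FPKM and was not tested. The others tested, RSAD2, ISG20, DDX60, XAF1, PARP9 and PARP14, had no call in any of the 6 comparisons, with group means from 1.12 to 11.7 FPKM.

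Between treatments, 2 of the 38 genes were called between reversine and BafA1 (1.23% of all rows), 11 between reversine and MG132 (6.51%) and 9 between BafA1 and MG132 (10.9%). Against MG132, reversine was higher for IRF1, ISG15, HERC6, IFIT1, OAS3, IFITM2, IFITM3, TRIM21 and IFI6 and lower for STAT2 and IFI44. BafA1 was higher than MG132 for IRF1, HERC6, IFIT1, OAS3, IFITM2 and IFITM3 and lower for STAT2, IFIT5 and IFI44. The log2 differences of those comparisons use no control library. Their standard errors and p-values do, because the spread is pooled over all 4 groups. Fits of the 2 groups alone gave 0, 1 and 5 calls, in the order above.

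Several of the genes lie next to each other in the RefSeq annotation, with no other protein-coding gene between them, and neighbours did not always have the same result. After MG132, HERC6 was called lower and its neighbour HERC5 averaged 2.74 times control without a call. IFIT5 was called higher while the neighbouring IFIT1 averaged 0.386 times control, and IFI44 was called higher while IFI44L averaged 1.44 times control. IFITM2 and IFITM3, on either side of IFITM1, were both called lower. After reversine OAS3 averaged 0.399 times and OAS1 2.60 times control. The difference between neighbours was not tested.

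Transcript GC content moved with the calls after MG132. The 5 genes called higher had a GC content of 37.4% to 51.7%, and 4 of them were below the median of the 38 tested genes (48.9%). The 7 called lower had 46.7% to 60.9%, and 6 of them were at or above that median. In MG132 2 and 3 the median log2 difference from the control mean was 0.64 and 0.67 for the 19 genes below that GC content and -0.31 and -0.26 for the 19 others. MG132 1 had 0.27 and -0.42. Its slope on GC content over all genes was 0.0861, below the control slopes of 0.123 to 0.194. In reversine 1 the medians were 1.04 and 0.04, and in reversine 2 and 3 they were 0.43 and 0.31, and 0.36 and 0.47. With the trends on GC content and transcript length removed from every library, an analysis added after the data were seen, the 12 MG132 calls were kept among 15 calls, and the 4 reversine calls among 6. Without the 4 negative-slope libraries, 6 of the 12 MG132 calls remained among 8 (STAT2, IFI44, OAS3, IFITM2, IFITM3 and IRF1), and the 4 reversine calls remained among 7, where ISG15, IFITM3 and TRIM22 joined them.

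**Figure D4:**
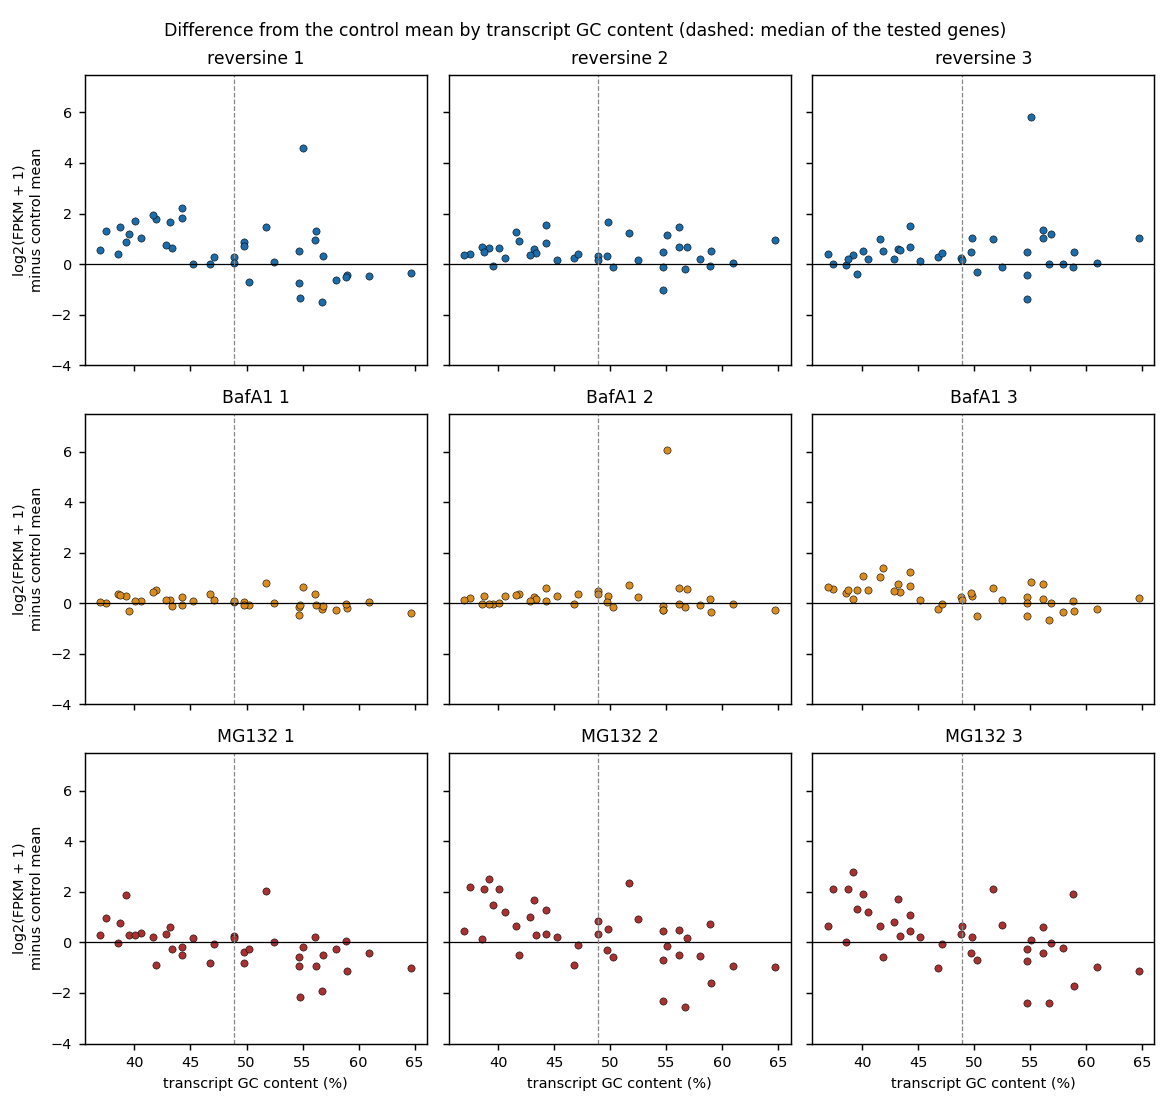
Difference of each treated library from the control mean on the log2(FPKM + 1) scale (vertical) against transcript GC content in percent (horizontal) for the 38 tested genes, 1 panel per library; the dashed line marks the median GC content of 48.9%. Genes below that GC content have a higher median difference than the others in every panel but reversine 3. The gap is widest in reversine 1, MG132 2 and MG132 3, and MG132 1 follows. The isolated high point in reversine 1, reversine 3 and BafA1 2 is IFITM1.

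Of 9 interferon genes, most were close to the values of genes without reads. IFNB1, the type I interferon that most cell types can make, was at 0.14 to 0.17 FPKM in control libraries, 0.14 to 0.18 with reversine, 0.18 to 0.22 with BafA1 and 0.17 to 0.36 with MG132. IFNK, IFNG, IFNL1, IFNL2 and IFNL3 were within 1.08 times the estimated value of a gene without reads in every library. IFNA1, a type I interferon, was at 0.14, 0.16 and 0.19 FPKM in control, 0.66, 0.64 and 0.25 after reversine, 0.17, 0.21 and 0.17 after BafA1, and 0.47, 0.85 and 0.30 after MG132. All its reversine and MG132 libraries were above the controls (ratios of means of 3.16 and 3.31), at levels too low to be tested. Only IFNE, an epithelial type I interferon, could be tested. It was at 0.53, 0.43 and 0.35 FPKM in control, 3.21, 0.76 and 0.66 after reversine, 0.55, 0.35 and 0.66 after BafA1, and 0.90, 3.68 and 4.66 after MG132, with no call (1.36 ± 0.44 after MG132, adjusted p = 0.0675). Its 3 highest values were in reversine 1, MG132 2 and MG132 3, which are among the 4 negative-slope libraries.

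A wider list of 70 pathway genes outside the 41, of which 58 were tested, had 3 calls after reversine (2 higher, 1 lower), 0 after BafA1 and 14 after MG132 (6 higher, 8 lower). These are 5.17%, 0% and 24.1% of the 58, beside 2.09%, 0.264% and 14.8% of all rows. An unadjusted limma p under 0.05 was reached by 5 of the 58 after BafA1 (8.62%, beside 7.12% of all rows). The median log2 difference of the 58 genes was 0.18 with reversine, 0.08 with BafA1 and -0.02 with MG132, beside the medians over all rows given above. Among receptors and kinases JAK1 rose after MG132 (26.9 to 30.8 FPKM in control, 48.7 to 55.4 after MG132, 0.86 ± 0.15, adjusted p = 0.00531). IFNGR1, a chain of the interferon gamma receptor, rose too (0.88 ± 0.19, adjusted p = 0.0125). Its partner chain IFNGR2 has 2 rows in the table, and the row with the higher mean was used. That row was at 150, 118 and 374 FPKM in control, 4.91, 6.24 and 7.81 after reversine, 5.49, 456 and 85.6 after BafA1, and 5.71, 39.3 and 13.8 after MG132. Reversine and MG132 libraries were below all controls, by the largest differences of the wider list, with no call (-4.71 ± 1.32 and -3.57 ± 1.32, adjusted p = 0.135 and 0.0947). The other IFNGR2 row was at 20.4 to 52.3 FPKM in all libraries, and how reads were divided between the rows is uncertain. IL10RB, a chain of the interferon lambda receptor, rose after both reversine (0.77 ± 0.16, adjusted p = 0.043) and MG132 (0.95 ± 0.16, adjusted p = 0.00391). Its reversine call was lost without any 1 of the 6 libraries compared (highest adjusted p over the alternatives 0.258).

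The type I receptor chains were not called. IFNAR1 was at 17.2, 8.79 and 13.7 FPKM in control and 13.2, 61.9 and 59.0 after MG132 (1.45 ± 0.54, adjusted p = 0.0944), with MG132 1 inside the control range. IFNAR2 averaged 11.1 FPKM in control and 6.67 after MG132 (-0.70 ± 0.24, adjusted p = 0.0787), and TYK2 66.0 and 52.5 FPKM (-0.33 ± 0.25, adjusted p = 0.39). IRF7, which amplifies type I interferon production, was also not called, and its means were 5.49 FPKM in control, 7.56 after reversine, 7.21 after BafA1 and 4.09 after MG132. IRF3, which relays viral sensing, fell after MG132 (50.8 to 26.4 FPKM, -0.93 ± 0.26, adjusted p = 0.0396).

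SOCS3, a feedback inhibitor of cytokine receptors, fell with reversine and MG132. Its levels were 19.1, 17.2 and 19.4 FPKM in control, 7.23, 9.82 and 9.05 after reversine, 18.6, 15.5 and 15.4 after BafA1, and 7.14, 5.42 and 4.53 after MG132. The differences were -1.02 ± 0.20 (adjusted p = 0.0385, called in 5 of 15 alternatives) and -1.56 ± 0.20 (adjusted p = 0.00112, called in 14 of 15). The reversine call was lost without any 1 of the 6 libraries compared (highest adjusted p over the alternatives 0.187). SOCS1, the related inhibitor of JAK kinases, fell after MG132 (2.46 to 1.22 FPKM, -0.64 ± 0.17, adjusted p = 0.0311) and was not called with GC and length correction (-0.20, adjusted p = 0.412).

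Of 34 other interferon-stimulated genes tested, GBP2, a guanylate-binding GTPase, rose after reversine, from 0.48, 1.11 and 0.74 to 2.41, 2.16 and 2.20 FPKM (0.89 ± 0.13, adjusted p = 0.00894). The call was lost without control 3 and in 3 other alternatives (highest adjusted p 0.11). After MG132, SLFN5 (1.43 ± 0.28, adjusted p = 0.00929), WARS, the tryptophanyl-tRNA synthetase (0.71 ± 0.12, adjusted p = 0.00375), and GBP5 (0.30 ± 0.07, adjusted p = 0.0233) rose. GBP5 was within 1.25 times the value of a gene without reads in every library, and WARS and GBP5 were not called with GC and length correction (0.36 and 0.04, adjusted p = 0.187 and 0.833). LY6E (-1.97 ± 0.32, adjusted p = 0.00349), TRIM14 (-1.76 ± 0.26, adjusted p = 0.00197), LGALS3BP (-0.87 ± 0.14, adjusted p = 0.00318), PLSCR1 (-0.85 ± 0.24, adjusted p = 0.0421) and the RNA sensor IFIH1 (-0.59 ± 0.15, adjusted p = 0.0301) fell. The MG132 calls in the wider list numbered 7 without the 4 negative-slope libraries and 0 without control 3, MG132 2 and MG132 3.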

How the data were processed

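Gene-level values of 12 polyA-selected RNA libraries were used. The submitters' processing notes name Bowtie 1.0.0, RSEM 1.2.6 and the build hg19 (GRCh37), and per the labels' protocols reads were 50 nt long. The authors estimated levels with these tools and deposited 1 table of values taken here as FPKM, since its header names no unit. The reasons are that library totals differ (962891.5 to 2057717), and genes without reads hold small positive values that fall with transcript length. Read counts are not given, so no counting interval can be computed.

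Groups came from the treatment in the labels, and replicate numbers, given in record order, pair nothing. The limma trend method (limma 3.58.1, R 4.3.3) was fitted to log2(FPKM + 1) over the 30712 rows that reached 1 FPKM in 3 or more libraries, all 4 groups in one fit (8 residual and 1.26 prior degrees of freedom), with Benjamini-Hochberg adjustment over all rows and calls at 0.05. The method was also run on simulated data, built from the control means and residual variances of this fit. No scaling was added.

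The value of a gene without reads was estimated per library from 25390 single-transcript genes. Transcript GC content, length and 50-base stretches came from GENCODE v29, promoters and gene order from RefSeq (GRCh38.p14). RefSeq promoters were missing for IFIT2, IFITM2, MX2, OAS2, OASL, PML, TRIM22 and USP18. Values of every library are given for genes called against control, the 5 highest in control, the 2 largest rises and falls without overlap per comparison, and the IFITM genes. From the wider list, called genes and genes fixed by the rule are named, except for a gene that is not reported here; others, such as ISG15, IRF9, OAS1, USP18, IFNE, IFNA1 and IFNGR2, were chosen after their values were seen. The genes, the lists and the libraries left out in alternatives were chosen with earlier results of these data known. Alternatives were another pseudocount (0.1), no filter or 5 FPKM, median-ratio scaling, 2-group fits, summed rows, leaving out libraries, and the added GC and length correction.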

Additional observations from a re-analysis of the deposited data

How the results depend on the processing

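No paired analysis was possible because the labels carry no replicate numbers that link libraries of different groups. Under 15 alternatives no called gene changed direction and BafA1 had 0 calls against control throughout.

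Counts of the 41 genes called moved as follows. Reversine against control had 4 calls, 7 without the 4 negative-slope libraries, 1 without control 3, MG132 2 and MG132 3, 0 in a fit of the 2 groups alone and 2 to 4 when 1 library was left out (2 without control 1 or control 3). MG132 against control had 12 calls, 3 without control 3, MG132 2 and MG132 3, 7 in the 2-group fit and 6 to 20 when 1 library was left out (6 without control 1, control 2, MG132 2 or MG132 3, 7 without control 3, 20 without MG132 1). Reversine against BafA1 had 2 calls, 1 with no filter, 1 with median-ratio scaling, 4 without the 4 negative-slope libraries, 1 without control 3, MG132 2 and MG132 3, 0 in the 2-group fit and 1 to 2 when 1 library was left out (1 without reversine 2, reversine 3 or any BafA1 library). Reversine against MG132 had 11 calls, 1 without control 3, MG132 2 and MG132 3, 18 with GC and length correction, 1 in the 2-group fit and 5 to 20 when 1 library was left out (5 without reversine 2, 7 without reversine 3, 6 without MG132 2 or MG132 3, 20 without MG132 1). BafA1 against MG132 had 9 calls, 2 without control 3, MG132 2 and MG132 3, 5 in the 2-group fit and 5 to 20 when 1 library was left out (5 without BafA1 1, MG132 2 or MG132 3, 20 without MG132 1).

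The wider pathway list had 3 calls after reversine, 0 without control 3, MG132 2 and MG132 3, 6 with GC and length correction, 0 in the 2-group fit and 0 to 2 when 1 library was left out (0 without control 3, 1 without control 1, control 2, reversine 2 or reversine 3). After MG132 it had 14 calls, 7 without the 4 negative-slope libraries, 0 without control 3, MG132 2 and MG132 3, and 8 to 25 when 1 library was left out (8 without control 3 or MG132 3, 9 without control 1 or control 2, 25 without MG132 1). Over all rows the calls ranged from 22 to 1104 for reversine (642 in the planned fit), 9 to 210 for BafA1 (81) and 507 to 12980 for MG132 (4549). The counts above are not set against the all-row count of the same alternative, so their changes need not be particular to the listed genes. Fewer libraries enter the fits that leave libraries out, where MG132 1 alone, once the negative-slope libraries are gone, is assumed to vary like the other groups, and the cause of the other changes was not tested. The median difference of the tested genes among the 41 after MG132 took either sign (-0.12 to 0.30), while after reversine it was 0.39 to 0.56 and after BafA1 0.11 to 0.25. The median over all rows ranged from -0.21 to 0.15 after MG132, -0.01 to 0.35 after reversine and 0.01 to 0.26 after BafA1 over 8 alternatives, and the reversine maximum was with the 5 FPKM filter. Without read counts, depth limits the genes near the value of a gene without reads to a description.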
